A study of Oryza sativa Indica Group with 6 samples.

Results

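The 49 rice genes named as heat shock proteins (HSP) or heat shock factors (HSF) were followed on 6 arrays of whole seedlings, wild-type rice and rice overexpressing *Abp57*, an auxin-binding protein gene. A gene was a member if a symbol or synonym in the NCBI rice gene table, which lists 39387 genes, reads HSP and a number, or HSFA, HSFB or HSFC and a number. Of the 49 members, 35 were measured by a transcript cluster (the array's set of probes for a gene) paired with that gene alone, out of 14662 genes measured in this way. Of the others, 11 have no cluster in the platform table, and 3 (HSP19.0, HSP81-2 and HSP81-3) occur only in clusters paired with several genes and were left out. The measured members are 19 heat shock factors (11 of 13 HSFA, 5 of 6 HSFB, 3 of 4 HSFC) and 16 heat shock proteins (14 of 22 small HSP, HSP101, and HSP81-1 as 1 of 3 of the HSP90 class). No gene of the table is named HSP70, HSP60 or HSP40 in the required form, so those chaperone families are outside the set.

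Heat shock factors are transcription factors that bind short repeated heat shock elements in promoters. Class A factors carry an activation domain, class B factors lack it and can act as repressors, and class C factors form a further group that is expanded in grasses. Their best known targets encode chaperones: small HSPs hold unfolding proteins in a soluble state, HSP101 pulls proteins out of aggregates, and HSP90 helps client proteins, among them signalling proteins and the auxin receptor complex in Arabidopsis, to mature. Many of these genes are induced by heat, while HSP90 and several HSFs are also used at normal temperature.

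The controls were 3 biological replicates of wild-type *indica* rice, cultivar MR219, and the overexpressing group was 3 biological replicates of T3 seedlings of the same cultivar transformed with *Abp57* by *Agrobacterium*. Both groups were grown for 10 days on MS medium (diluted, by the sample records), with no heat treatment named, and each replicate held at least 3 seedlings, root and shoot together. The promoter that drives *Abp57* and the number of transformed lines are not given in the sources used here, and the signal of *Abp57* itself was not analysed here. The values are log2 signals after RMA, and a difference of 1 is a fold of 2. The number of arrays limits the precision, and in RNA of whole seedlings fewer cells of a type and less RNA per cell cannot be told apart.

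Control replicate 3 stood apart from the other arrays. For 11 markers of dividing tissue, each centred on its mean over the arrays, the median was -1.01 there, while the other controls had 0.63 and 0.67 and overexpressing replicates 1, 2 and 3 had 0.26, -0.36 and -0.27. Of the 5 shoot markers measured, rca (Rubisco activase), GLO1 and rbcS had every overexpressing array above every control. Such a separation was had by 7.52% of all genes and 5.51% of all clusters. The remaining shoot markers, CAB1R and CAB2R, had overlapping genotypes and log2 differences of 0.21 and -0.05. The median difference of the shoot list was 0.39, and the 3 root markers had a median of -0.14. The part of these shifts in the heat shock values was not tested. The RNA integrity numbers (RIN) in the methods were matched to the arrays by replicate number, which is an assumption. By that match control replicate 3 and overexpressing replicate 3 also had the highest RIN. With RIN as a covariate 0 members passed a fold of 2 with an unadjusted p below 0.05. Of 41770 clusters, 169 did so higher and 77 lower. The adjusted p was passed by 0 members and 2 clusters, and 2 members and 2747 clusters had an unadjusted p below 0.05.

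No heat shock gene passed the thresholds of the comparison between the genotypes. At a fold above 2 and an unadjusted p below 0.05 limma called 0 of 35 members higher in overexpressing rice, where 0.335% of all clusters and 0.464% of all genes were called, and 0 lower, where 0.172% and 0.273% were. At an adjusted p below 0.05 it called 0 members, against 0.0144% of clusters and 0.0205% of genes, and 0 members had a fold above 2 whatever the p, against 0.606% and 0.907%. The lowest adjusted p among members was 0.625. An unadjusted p below 0.05 was had by 2 members, HSFB2A (lower) and HSP24.1 (higher), against 6.88% of clusters and 8.54% of genes in either direction, and by 3 members in the unpaired test of the methods, which also called 0 past the fold. The median log2 difference, overexpressing minus control, was -0.01 over the members, 0.01 over all genes and -0.03 over all clusters. It was above 0 in 17 members and below 0 in 18, and ran from -0.72 to 0.46.

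The size of difference that these arrays leave room for was narrow for most members. The 95% interval of the log2 difference from limma was not widened for the number of genes. It uses a variance for each gene that is drawn towards that of all clusters. This interval lay between -1 and 1 in 32 of 35 members, against 91.4% of all clusters and 87.9% of all genes. A change of 2-fold or more thus lay outside the limma interval for those 32. Intervals from the replicates of each gene alone were not computed. The exceptions were HSFA4D (-1.27 to 0.09), HSFB2A (-1.22 to -0.22) and HSFC2B (-1.04 to 1.05). In 33 of 35 members the replicates of at least 1 genotype were spread more widely than the genotype means differed. The same held in 93.9% of all clusters and 93.2% of all genes. The 3 signals of overexpressing rice all lay above those of the control in 3 members, HSP24.1, HSP17.9B and HSP81-1 (background 5.51% of clusters), and all below in 3 members, HSFB2A, HSFA4D and HSP16.9A (background 7.53%). Among the 14662 genes the backgrounds were 7.52% and 6.68%.

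**Figure D1:**
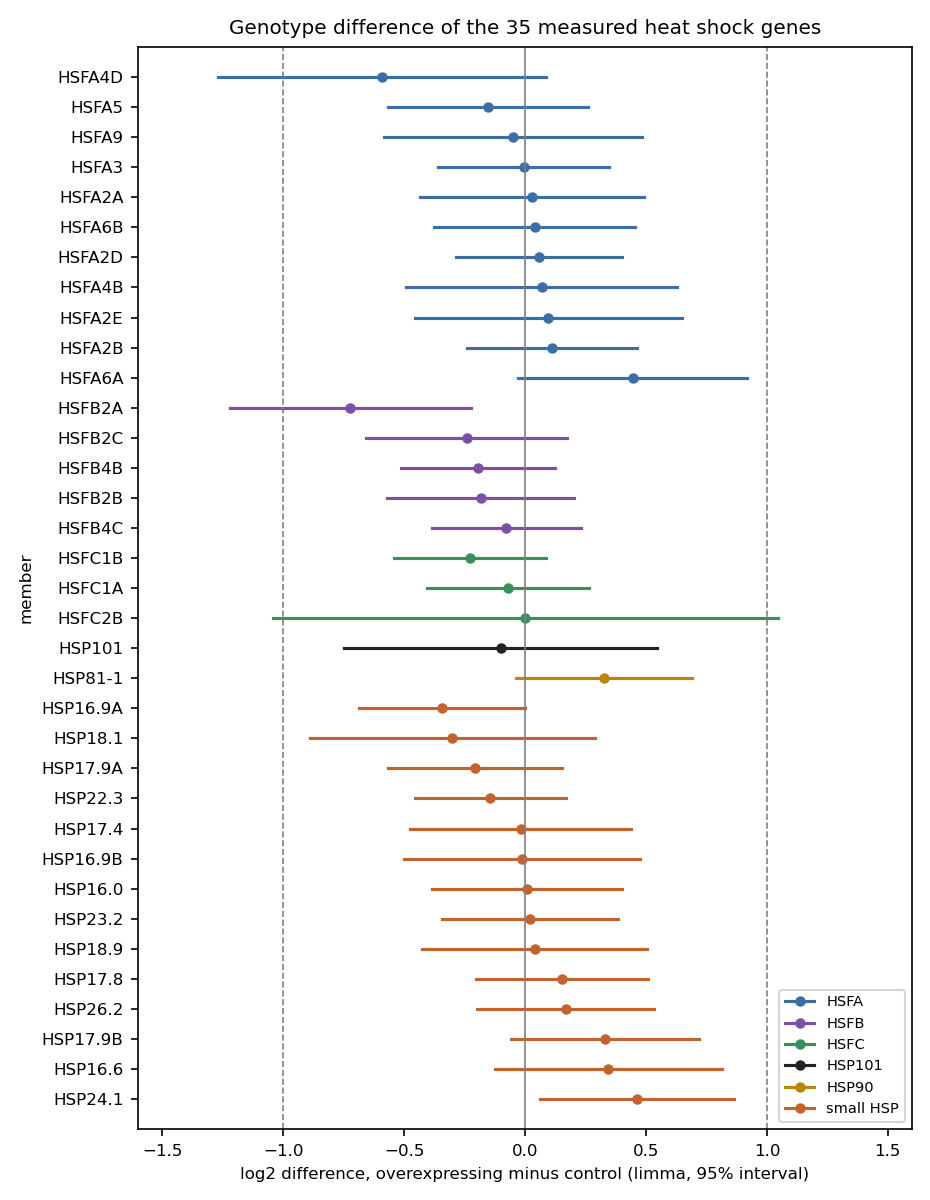
Log2 difference between overexpressing and control rice for each of the 35 measured members (points, limma estimate; lines, 95% interval; colours, class), on the horizontal axis, with dashed lines at a fold of 2 in either direction. All points lie between -0.72 and 0.46, the 5 HSFB points lie left of 0, and 3 intervals (HSFA4D, HSFB2A, HSFC2B) cross a dashed line.

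Of the class A factors, 7 of 11 had a difference above 0 and 4 below, with a median of 0.04. HSFA4D, known in rice as SPL7 from a mutant with spotted leaves, had log2 signals of 7.10, 6.68 and 6.85 in control replicates 1, 2 and 3, and of 5.56, 6.67 and 6.63 in overexpressing replicates 1, 2 and 3, the order in which all such values are given. The genotypes were apart only narrowly, by 6.68 against 6.67, and overexpressing replicate 1 was far below the other arrays. The difference was -0.59 (standard error 0.30, given first in brackets from here on; adjusted p = 0.745 from limma) and -0.23 without that replicate. HSFA6A had 4.86, 5.33 and 5.07 in the controls and 5.15, 5.76 and 5.67 in overexpressing rice, which overlap through overexpressing replicate 1, a difference of 0.45 (0.21, adjusted p = 0.734).

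The other 9 class A factors had differences between -0.16 and 0.11. HSFA2E, of the group whose Arabidopsis member HSFA2 sustains the response under repeated heat, had 6.82, 6.36 and 7.23 in the controls and 7.17, 6.66 and 6.87 in overexpressing rice, so that the controls alone covered the whole range. HSFA2D had 9.03, 8.96 and 8.95 against 9.25, 9.02 and 8.86, a difference of 0.06 (0.15). The NCBI record of HSFA2D also carries names of an acireductone dioxygenase (ARD2), an enzyme of methionine salvage, so its signal is uncertain as a measure of the factor. HSFA2A and HSFA2B had differences of 0.03 and 0.11, and HSFA6B had 0.04. HSFA3, in Arabidopsis a factor downstream of the drought and heat regulator DREB2A, had -0.01, and HSFA5, which in Arabidopsis inhibits HSFA4 factors, had -0.16. HSFA9, known in Arabidopsis from seed maturation, had 7.53, 7.70 and 8.26 in the controls and 7.44, 7.96 and 7.94 in overexpressing rice. HSFA4B had 5.55, 5.68 and 6.37 against 5.62, 6.05 and 6.13. In HSFA9, HSFA4B, HSFA5 and HSFA2E control replicate 3 was the highest of the 6 arrays.

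All 5 class B factors measured had a lower mean in overexpressing rice, with differences of -0.72 to -0.08 and a median of -0.20, while 55.7% of all clusters and 48.8% of all genes were below 0. None of them passed the fold or the adjusted p, and 1 had an unadjusted p below 0.05. That gene, HSFB2A, had 6.13, 6.23 and 5.90 in the controls and 5.06, 5.82 and 5.22 in overexpressing rice. The genotypes did not overlap, with 5.90 as the lowest control and 5.82 as the highest overexpressing array, and its mean was 1.65-fold lower in overexpressing rice, a log2 difference of -0.72 (0.22, adjusted p = 0.625). With 1 array left out the difference ranged from -0.95 to -0.57 and no adjusted p was below 0.05.

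HSFB2B, reported in rice as a negative regulator of drought and salt tolerance, had 6.80, 6.62 and 7.07 in the controls and 6.52, 6.59 and 6.83 in overexpressing rice, which overlap, a difference of -0.18 (0.17, adjusted p = 0.851), or -0.063 without control replicate 3, -0.12 without overexpressing replicate 1 and -0.29 without control replicate 2. HSFB2C had 6.22, 6.25 and 6.57 against 5.82, 6.32 and 6.18, or -0.24 (0.18, adjusted p = 0.823), with overlap, and -0.098 without overexpressing replicate 1 or -0.13 without control replicate 3. The cluster assigned to HSFB2C is uncertain: the gene lies on chromosome 9 of the NCBI assembly, while 19 of the 20 clusters nearest in number belong to genes of chromosome 3. The group B4 factors had differences of -0.20 (HSFB4B) and -0.08 (HSFB4C), both with overlapping genotypes.

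Among the class C factors HSFC2B had the widest range over the arrays of all 35 measured members, with log2 signals of 6.91, 6.62 and 8.56 in control replicates 1, 2 and 3, and of 7.08, 7.60 and 7.43 in overexpressing replicates 1, 2 and 3. Control replicate 3 was the highest array and control replicate 2 the lowest, a range of 1.94 within the controls against 0.52 within the overexpressing rice. The genotype means were both 7.37, with SD 1.05 and 0.26 (n = 3 each), and the difference was 0.00 (0.45, adjusted p = 1.00). Without control replicate 3 it was 0.60 (adjusted p = 0.305), with both remaining controls below the 3 overexpressing arrays. HSFC1B, linked in rice to salt tolerance, had -0.23 (0.14, adjusted p = 0.782) and HSFC1A had -0.07 (0.15), with ranges of 0.35 over the 6 arrays in both.

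**Figure D2:**
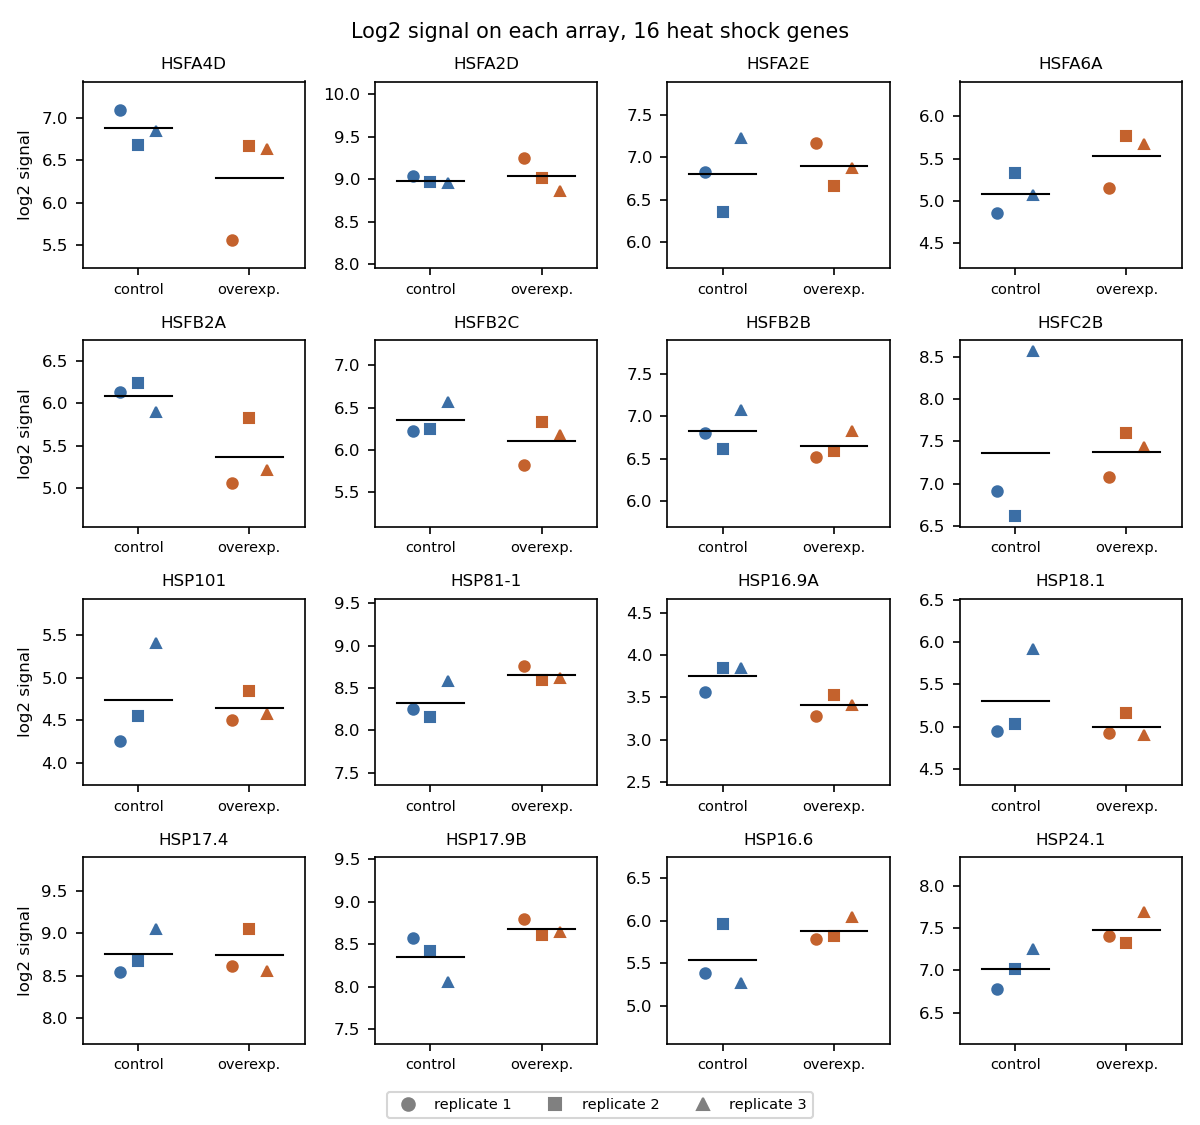
Log2 signal (vertical axis, of the same length in log2 units in every panel) of 16 members on each array, control at left and overexpressing rice at right; symbols mark replicates and bars the mean of 3 arrays. Control replicate 3 lies above the other arrays in HSFC2B, HSP101 and HSP18.1, overexpressing replicate 1 lies far below in HSFA4D, and the genotypes are apart without overlap in HSFB2A, HSFA4D, HSP16.9A, HSP81-1, HSP17.9B and HSP24.1.

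HSP101, the cytosolic disaggregase (also named CLPB1) that plants need to survive severe heat, had 4.26, 4.55 and 5.41 in the controls and 4.51, 4.84 and 4.57 in overexpressing rice. Control replicate 3 was the highest array and control replicate 1 the lowest, so the overexpressing arrays lay inside the range of the controls. The difference was -0.10 (0.28, adjusted p = 0.957), and 0.23 without control replicate 3.

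HSP81-1, a cytosolic HSP90, had 8.25, 8.15 and 8.58 in the controls and 8.75, 8.59 and 8.62 in overexpressing rice. The genotypes were apart by 8.58 in control replicate 3 against 8.59 in overexpressing replicate 2. The difference was 0.33 (0.16, adjusted p = 0.741), and 0.45 without control replicate 3 (adjusted p = 0.303). HSP81-2 and HSP81-3, the other named HSP90 genes, are 3 places apart on chromosome 9 in the gene order and share clusters with another gene, so no value is given.

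Small heat shock proteins had a median difference of 0.02, with 8 of 14 above 0 and 6 below, and none passed. HSP24.1, directed to mitochondria, had the highest difference of all members, with 6.78, 7.01 and 7.25 in the controls and 7.41, 7.33 and 7.69 in overexpressing rice. Every overexpressing array was above every control, and the mean was 1.38-fold higher, a log2 difference of 0.46 (0.17, adjusted p = 0.693), or 0.35 to 0.58 with 1 array left out. HSP23.2, of the endoplasmic reticulum, had 0.02 (0.16).

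Small HSP genes lie near one another on chromosomes 1 and 3 of the NCBI assembly. On chromosome 1, 5 genes follow one another, of which 4 were measured, and their differences lay on both sides of 0. HSP16.6 and HSP17.9B had 0.34 and 0.33, whereas HSP16.9A and HSP16.9B had -0.34 and -0.01. HSP16.6 had 5.39, 5.96 and 5.26 in the controls and 5.78, 5.82 and 6.04 in overexpressing rice, overlapping through control replicate 2 (standard error 0.20, adjusted p = 0.780), and its difference was 0.56 without that replicate and 0.20 without control replicate 3. HSP17.9B had 8.58, 8.42 and 8.06 against 8.79, 8.61 and 8.64, with control replicate 3 lowest and the genotypes apart by 8.58 against 8.61 (0.17, adjusted p = 0.749), and its difference was 0.18 without control replicate 3. HSP16.9A, a cytosolic class I protein, had 3.56, 3.84 and 3.85 against 3.28, 3.53 and 3.42, apart by 3.56 against 3.53 (0.15, adjusted p = 0.726). It is the 1 member among the dimmest 25% of clusters. HSP16.9A and HSP16.9B are close copies that share a synonym and may share probes, so the split between them is uncertain.

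On chromosome 3, 3 of 4 cytosolic class I genes that lie close together were measured, all with a difference below 0. HSP18.1 had 4.95, 5.03 and 5.92 in the controls and 4.93, 5.16 and 4.91 in overexpressing rice. Control replicate 3 was well above the other arrays, among which the genotypes overlapped, and the difference of -0.30 (0.26, adjusted p = 0.843) was 0.01 without it. HSP17.4 had 8.54, 8.68 and 9.05 against 8.61, 9.05 and 8.55, a difference of -0.02 (0.20, adjusted p = 0.991). Its other 2 clusters, whose signals are identical to each other on every array, had -0.23 (0.21), with control replicate 3 again highest. HSP17.9A had -0.21 (0.16) and control replicate 3 as its highest array. The other small HSPs, HSP16.0, HSP17.8, HSP18.9, HSP22.3 and HSP26.2, had differences between -0.14 and 0.17. HSP18.9 was the reverse of HSP18.1 among arrays, with 5.95 in control replicate 3 and between 6.33 and 6.64 on the other arrays.

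**Figure D3:**
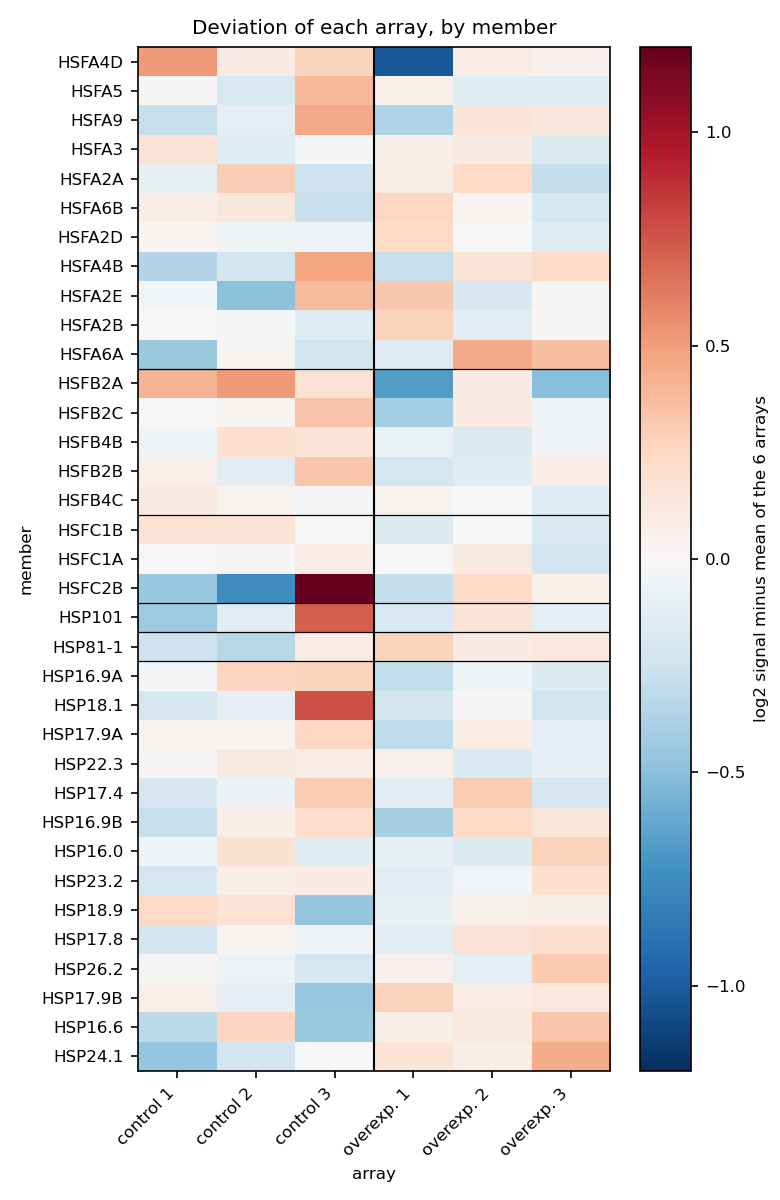
Log2 signal of each measured member (rows, grouped by class and ordered by genotype difference) on each array (columns) as deviation from the mean of its 6 arrays, red above and blue below. The strongest colours are those of HSFC2B, red on control replicate 3 and blue on control replicate 2, of HSFA4D, blue on overexpressing replicate 1, and of HSP18.1 and HSP101, red on control replicate 3, and no column is of one colour through all classes.

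Members differed in which array carried their highest signal. Control replicate 3 was highest for 12 of 35 members, or 34.3%, against 22.9% of all genes, and the 12 came from every class but HSP90. It was lowest for 6 members (17.1%, against 22.4% of all genes). Overexpressing replicate 1 was highest for 5 members (14.3%, against 25.1% of all genes) and lowest for 8 (22.9%, against 20.1% of all genes and 25.9% of clusters), among them 3 of the 5 class B factors. Overexpressing replicate 3 was highest for 6 members (17.1%, against 12.5% of all genes), all of them small HSPs. Members are not independent of one another, and these counts are a description of 6 arrays. The median range over the 6 arrays was 0.58 for the members and 0.64 for all genes, and within the controls it was 0.42 for both.

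**Figure D4:**
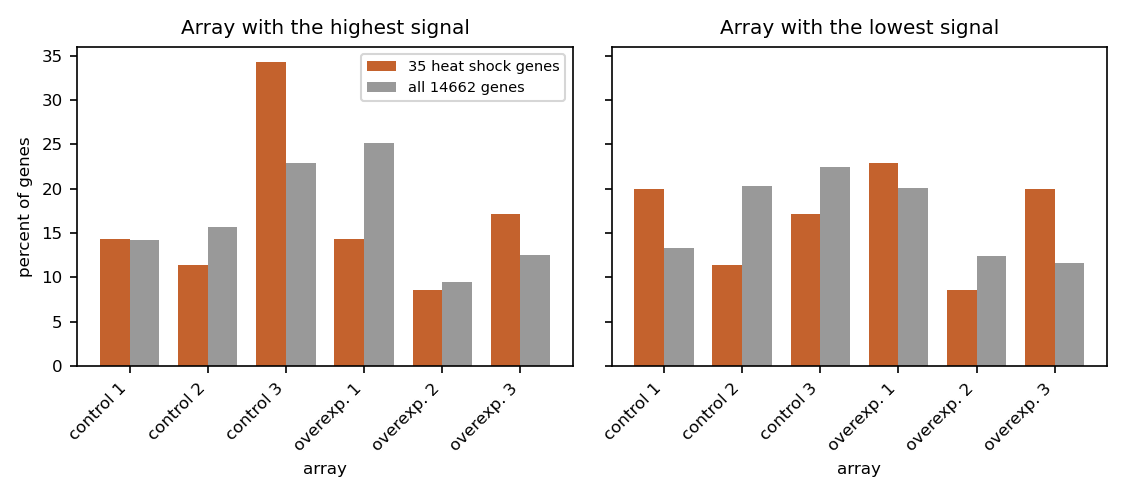
Percent of the 35 measured heat shock genes (orange) and of all 14662 genes (grey) whose highest (left) or lowest (right) log2 signal fell on each array. Control replicate 3 holds the highest signal of 34.3% of the heat shock genes and 22.9% of all genes.

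Control replicates 1 and 2 and overexpressing replicate 1 lay together below the other 3 arrays in HSFA4B, HSFA9, HSFC2B, HSP101 and HSP16.9B, 5 of 35 members (10.8% of all genes), and above them in HSFA6B and HSFB4C (12.3% of all genes). That arrangement of the arrays was noticed in the data and crosses the genotypes.

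Other genes of protein folding and of the response to heat and oxidation were counted for comparison, by names listed with earlier results known. Of 35 measured genes (53 named) 0 passed the fold with the unadjusted p or the adjusted p in limma, 5 had an unadjusted p below 0.05 (background 8.54% of genes and 6.88% of clusters), and the median difference was 0.08. The ABP1 type of auxin-binding protein resides in the endoplasmic reticulum, and whether *Abp57* encodes that type was not examined here. The 14 measured genes of folding in this compartment had 0.10 as median and 0 with an unadjusted p below 0.05. Among them BIP1, the HSP70 of that compartment, had 0.15 (0.20) and CRT1, a calreticulin, had 0.19 (0.22), both with overlapping genotypes. BIP2 and BIP3 both had -0.20 (0.13 and 0.14), and BIP4 had -0.02. In that list only BIP2 and BIP3 had genotypes that did not overlap, with every overexpressing array below every control. The background for this was 6.68% of genes and 7.53% of clusters. The mean signals of BIP2 were 4.08 in the controls and 3.87 in overexpressing rice. The 4 J proteins, which deliver clients to HSP70, had a median of 0.02, the 5 Clp proteins 0.15 (no chaperonin was among the named genes), and the 10 genes of heat and oxidative stress 0.05. Both entries of the co-chaperone list, RAR1, which works with HSP90 in plant immunity, and HIP1, had differences below 0, at -0.02 and -0.35. HIP1 was listed by its name alone, and whether it encodes a co-chaperone was not checked.

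The 5 Clp genes measured, which encode organellar relatives of HSP101, had differences on both sides of 0. CLPB-M, the mitochondrial form, had 6.91, 6.42 and 7.77 in the controls and 7.80, 7.82 and 7.89 in overexpressing rice, with control replicate 3 just below the overexpressing arrays, a difference of 0.80 (0.30, adjusted p = 0.696). CLPB-C, the plastid form, had 8.11, 7.97 and 8.48 against 8.39, 8.44 and 8.49, or 0.25 (0.17, adjusted p = 0.801). CLPD1, a plastid Clp subunit, had 6.59, 6.32 and 8.88 against 6.85, 7.47 and 7.39. As in HSFC2B, control replicate 3 was the highest array there and control replicate 2 the lowest, and the difference was -0.03 (0.60). CLPC1 and CLPC3, subunits of the plastid Clp system, had 0.15 (0.17) and -0.18 (0.17), both with overlapping genotypes.

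Of 8 ascorbate peroxidases and catalases measured, enzymes that remove hydrogen peroxide, 4 had an unadjusted p below 0.05, against 8.54% of all genes, a grouping made after the values were seen. APX1, a cytosolic ascorbate peroxidase, had 9.56, 9.47 and 8.73 in the controls and between 8.20 and 8.55 in overexpressing rice. The genotypes did not overlap, control replicate 3 lay nearest to the overexpressing arrays, and the difference was -0.87 (0.23, adjusted p = 0.565). The other cytosolic form, APX2, had 8.05, 8.09 and 7.82 against 8.56, 8.29 and 8.24, or 0.37 (0.15, adjusted p = 0.718), so these close relatives differed in opposite directions. APX8, a plastid form, had 0.59 (0.22, adjusted p = 0.702), and catA, a catalase, had -0.55 (0.20, adjusted p = 0.682), each with overlapping genotypes. The other 4 had differences of -0.02 (CatB), -0.0013 (APX4), 0.10 (APX5) and 0.34 (APX6), also with overlapping genotypes. None of the 8 passed the fold.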

How the data were processed

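The log2 signals of 41770 transcript clusters on 6 Affymetrix Rice (Cn) Gene 1.0 ST arrays were deposited by the authors, who made them with RMA in Affymetrix Expression Console (background correction, normalization over arrays and summary per cluster; versions are not given in the sources used here). Signals ran from 1.25 to 13.9 and were used as they are. Probe intensities were not analysed here, so detection above background was not assessed. Genes were paired with clusters by the platform table (15299 clusters with 1 gene, 436 with several) and named from the NCBI assembly ASM3414082v1. Its coordinates served only for the chromosome and the order of genes, since the array is of another subspecies. Where a gene had more than 1 cluster, the brightest by mean signal was taken. No promoter or protein sequences were used here, so the planned search for heat shock elements was not run.

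The genotypes were compared with limma (version 3.58.1, under R 4.3.3), using lmFit and eBayes (no covariate, all clusters in the fit, Benjamini-Hochberg adjustment over all clusters). The code was tested on simulated data. The members and the lists were chosen with earlier results of these data known. BIP was read as BIP alone or with 1 digit, a choice made by name. Genes named with values were the members past the fold and p (none), the 5 highest and 5 lowest differences, the member of highest mean signal in each class, the 8 widest ranges, and factors with an unadjusted p below 0.05, which gave 16 members; further members and related genes were named after their values were seen. The limma p-values set the difference of the genotype means against the spread between biological replicates, 3 in each genotype. That spread is pooled over both genotypes and drawn towards the spread of all clusters. Alternatives were the ANOVA of the methods with mean and biweight folds, cyclic loess and a second quantile normalization, weights per array, RIN as a covariate, a replicate block, a variance trend with signal, removal of the 25% dimmest clusters, clusters with 1 gene, the mean of a gene's clusters, and each array left out.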

Additional observations from a re-analysis of the deposited data

How the results depend on the processing

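Under all 17 alternatives 0 members passed the fold with the unadjusted p in either direction and 0 passed the adjusted p. An unadjusted p below 0.05 was had by 1 to 4 members. Among the alternatives fitted to all 41770 clusters, it was had by 1858 (without control replicate 2) to 4932 clusters (without control replicate 3). In those fits 0 to 151 clusters passed the adjusted p. The fold with the unadjusted p was passed by 99 to 222 clusters higher and 27 to 196 lower. With the replicate block the count of members past the adjusted p was 0 as well, against 15 of 41770 clusters. In that fit 3 members and 3503 clusters had an unadjusted p below 0.05. Arrays sharing a replicate number did not deviate together throughout: their correlations were 0.35, -0.11 and 0.21, and 1 of the 3 control arrays correlated best with its own number. The median difference of the members was -0.089 to 0.0084 with 1 array left out. HSP16.9A is not among the clusters kept by the filter on dim clusters. Of 16 named members 10 kept their direction under every alternative that gave a value, and 6 members changed it in 20 of 271 values, none of them past a threshold. HSFA2D had -0.0080 with repeated quantile normalization, -0.016 with cyclic loess and -0.0012 with array weights. HSFC2B had -0.023 and -0.018 under these normalizations and -0.15 with RIN. With array weights HSP17.4 had 0.089 and HSP101 had 0.13. With 1 array left out the differences ran from -0.37 to 0.60 for HSFC2B, -0.34 to 0.23 for HSP101, -0.13 to 0.31 for HSFA2E, -0.18 to 0.13 for HSP17.4, -0.046 to 0.15 for HSFA2D and -0.47 to 0.0084 for HSP18.1. With the biweight fold HSFC2B had 0.62 and HSFA4D -0.22. The cause of these shifts was not tested.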
